A study of Mus musculus with 10 samples.

Results

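The cytochrome P450 genes were taken as every protein-coding gene of the deposited table with a symbol that starts with Cyp and a digit, which gave 100 of 54532 genes. Of these, 43 had at least 10 counts in at least 5 of the 10 libraries and are described here by role and subfamily. The other 57 fell below that minimum, 23 of them with a count of 0 in every library. The libraries were made from obstructed kidneys of male C57BL/6 mice, wild type, in which a ureter had been tied at 8 weeks of age (unilateral ureteral obstruction, UUO), with the kidney taken 14 days later. Of these mice, 5 were given phosphate-buffered saline (PBS) and 5 dimethyl malonate (DMM), an ester of malonate that inhibits succinate dehydrogenase, at 40 mg/kg by intraperitoneal injection every other day. RNA of each kidney gave a single bulk RNA-seq library, with between 15722527 and 19475833 counted reads. The deposited table holds no unobstructed kidney, so that the comparison of DMM with PBS concerns obstructed tissue alone.

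P450 enzymes are haem proteins of the endoplasmic reticulum or mitochondria that use oxygen, and electrons passed on from NADPH, to oxidise fatty acids, sterols, vitamins, hormones and foreign compounds. In the kidney most of them are found in the proximal tubule, where Cyp4a enzymes hydroxylate the omega end of fatty acids such as arachidonic acid, Cyp2c and Cyp2j enzymes form epoxides of arachidonic acid, and a pair of mitochondrial enzymes makes and degrades active vitamin D. The Cyp4a genes are long-known targets of the fatty acid receptor PPARα, which is active in the same tubule cells.

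Before any comparison, 3 libraries stood apart. PBS replicate 3 (written PBS 3, and so on) and DMM 1 had a weight of 0 in the group means that the authors deposited, which used the other 8 libraries. The summed level of 20 proximal tubule markers, in TMM-scaled CPM, was 5765, 5836, 14473, 2462 and 4501 in PBS 1 to 5 and 4445, 11583, 10643, 8647 and 14904 in DMM 1 to 5. PBS 3 thus lay among the higher DMM libraries and DMM 1 among the lower PBS libraries. In 10 interferon response genes only DMM 1 lay with the other group, at a sum of 2824 CPM. The other DMM kidneys had 291 to 378 CPM and PBS kidneys 2231 to 3722 CPM, with PBS 3 at 2627 CPM. DMM 4 differed in another way, with 20029 genes detected against 22898 to 24083 in the other libraries, 5.62% of counts on the mitochondrial genome against 1.97% to 4.39%, and a TMM factor of 0.852 against 0.981 to 1.05. The percentage of counts on the mitochondrial genome also differed between the groups, from 1.97% to 2.30% in the 4 PBS and from 3.79% to 5.62% in the 4 DMM kidneys of the 8 libraries, with 3.66% in PBS 3 and 2.30% in DMM 1. Its part in the P450 results was not tested. Comparisons are given over the 8 libraries and over all 10. The sets share 8 libraries, so that neither is an independent check of the other.

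Levels of different genes were compared as TMM-scaled CPM per kilobase of gene length (CPM per kb), averaged over all 10 libraries. Mean levels ran from 0.337 to 211 CPM per kb, with 3 genes above 100, 17 above 10 and 8 under 1. The most abundant was the epoxygenase gene Cyp2j5 at 211 CPM per kb, followed by the ethanol-oxidising enzyme gene Cyp2e1 at 114, the fatty acid hydroxylase gene Cyp4b1 at 110.4 and Cyp1b1, which oxidises estrogens and polycyclic compounds, at 45.8. The order differed between the groups, since Cyp4b1 (89.4) was above Cyp2e1 (77.9) in the mean of the 5 PBS kidneys, and Cyp4a10 (59.5) and Cyp4a14 (52.5) were above Cyp1b1 (47.8) in that of the 5 DMM kidneys. Together Cyp2j5, Cyp2e1, Cyp4b1 and Cyp1b1 held between 47.8% and 60.9% of the summed level in each library. The Cyp2c, Cyp3a and Cyp2b subfamilies were mostly at or near 0. Of 15 Cyp2c genes 1 passed the count minimum, Cyp2c23, and 9 had no count at all. In Cyp3a, 1 of 9 passed, Cyp3a13, and 6 had no count, and none of 5 Cyp2b genes passed, with at most 5 counts in any library. The 6 enzymes of steroid hormone synthesis also fell below the minimum, the highest being Cyp11b1 with 31 counts in PBS 5. Just inside the minimum stood Cyp4f39 (5 libraries with 10 or more counts), Cyp26a1, Cyp4a32, Cyp4f15 and Cyp1a1 (6 each), and just outside stood the bile acid enzyme gene Cyp8b1 with 3 such libraries. Cyp4a32 and Cyp4f39 reached 10 counts in fewer than 3 PBS libraries and so passed mainly through DMM kidneys.

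When the groups were compared over the 8 libraries, 9 of 43 P450 genes were higher in DMM kidneys and 0 were lower, in the quasi-likelihood test of edgeR with p adjusted by Benjamini-Hochberg over 16550 genes (fold change above 1.5 and adjusted p under 0.05). Those 9 were 20.9% of the members, against 2.73% of all tested genes called higher and 3.56% called lower. They comprised 3 Cyp4a hydroxylases, 2 Cyp2j epoxygenases, Cyp2a5, Cyp2e1, and 2 enzymes of sterol metabolism, Cyp7b1 and Cyp51. Members with a positive log2 fold change numbered 37 of 43, against 52.4% of all tested genes, and their median was 0.83 against 0.02. A fold change above 1.5 was reached by 23 members whatever the p (9.87% of all tested genes). Without Cyp4a32 and Cyp4f39, left out after the values were seen, 35 of 41 were positive, 21 exceeded a fold change of 1.5, the median was 0.79 and the 9 called were the same. Values of the 2 groups did not overlap in 12 members that were higher (9.45% of all tested genes) and in 1 that was lower (10.6%). At an unadjusted p under 0.05 with the same fold change, 19 members were higher (6.45% of all tested genes) and 1 was lower (7.24%). Without Cyp4a32 and Cyp4f39 these were 18 and 1. DESeq2 called 16 members higher and 0 lower on the same 8 libraries (2.48% of all 30191 genes with any count higher and 3.02% lower). They were all 9 that edgeR called with Cyp24a1, Cyp2a4, Cyp2d12, Cyp2d26, Cyp2d9, Cyp4a12a and Cyp4b1. The 30191 genes, unlike the 16550 above, take in many below the count minimum of the members, so these shares are not on a like base. Scaling by library size alone left 7 members higher, without Cyp2e1 and Cyp51. It lowered the median log2 fold change of all tested genes by 0.11 and turned 452 higher and 590 lower genes (43.4% higher) into 276 and 700 (28.3% higher), with a median of the members of 0.72. Without a filter on low counts 11 members were higher (1.35% of the same 30191 genes with any count higher and 1.82% lower), with Cyp2a4, Cyp2d26 and Cyp4b1 gained and Cyp51 lost.

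The count of 9 changed with each library left out. It became 8 without DMM 2 (2.23% of all tested genes called higher), 5 without DMM 3 (1.1%), 5 without DMM 5 (0.995%), 5 without PBS 1 (1.34%), 5 without PBS 2 (1.17%), 4 without PBS 4 (0.952%) and 2 without PBS 5 (0.774%). Without DMM 4 it became 16 higher (6.71% of all tested genes), again with all 9, and 1 lower (7.61%). Calls over all genes thus fell and rose with those of the members. The median log2 fold change of the members lay between 0.59 (without DMM 3) and 0.84 (without PBS 5), with 35 to 38 of 43 positive. A block on replicate number, although the numbers did not pair the kidneys, gave 0 (0% of all tested genes), with 32 of 43 members positive and a median of 0.28. Among the 8 libraries only numbers 2, 4 and 5 held both groups. The block thus also took PBS 1 and DMM 3 out of the comparison. Over all 10 libraries 0 of 42 members were called in either direction by edgeR, as were 0% of the 16505 genes tested. DESeq2 also called 0 members, against 0.0454% of all 30851 genes with any count called higher and 0.117% lower. Without DMM 1 edgeR called 0 members, where 0.298% of all tested genes were called higher and 2.6% lower. At an unadjusted p under 0.05 and a fold change above 1.5 there were 6 higher (14.3%, against 1.91% of all tested genes), namely Cyp4a14, Cyp4a10, Cyp4a31, Cyp2j11, Cyp2a5 and Cyp24a1, and 1 lower (4.11% of all tested genes), Cyp4f18. A positive log2 fold change was found in 36 of 42 members over all 10 libraries, against 52.8% of all tested genes, with a median of 0.50 against 0.02, and 17 members exceeded a fold change of 1.5 whatever the p (4.93% of all tested genes). Without Cyp4a32, 35 of 41 were positive and 16 exceeded that fold change, with a median of 0.49. No member had groups without overlap over all 10 libraries (0.794% of all tested genes higher and 1.16% lower). PBS 3 was the highest PBS library in 22 of 42 members (52.4%, against 26.9% of all tested genes), and DMM 1 the lowest DMM library in 18 (42.9%, against 19.4%).

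**Figure D1:**
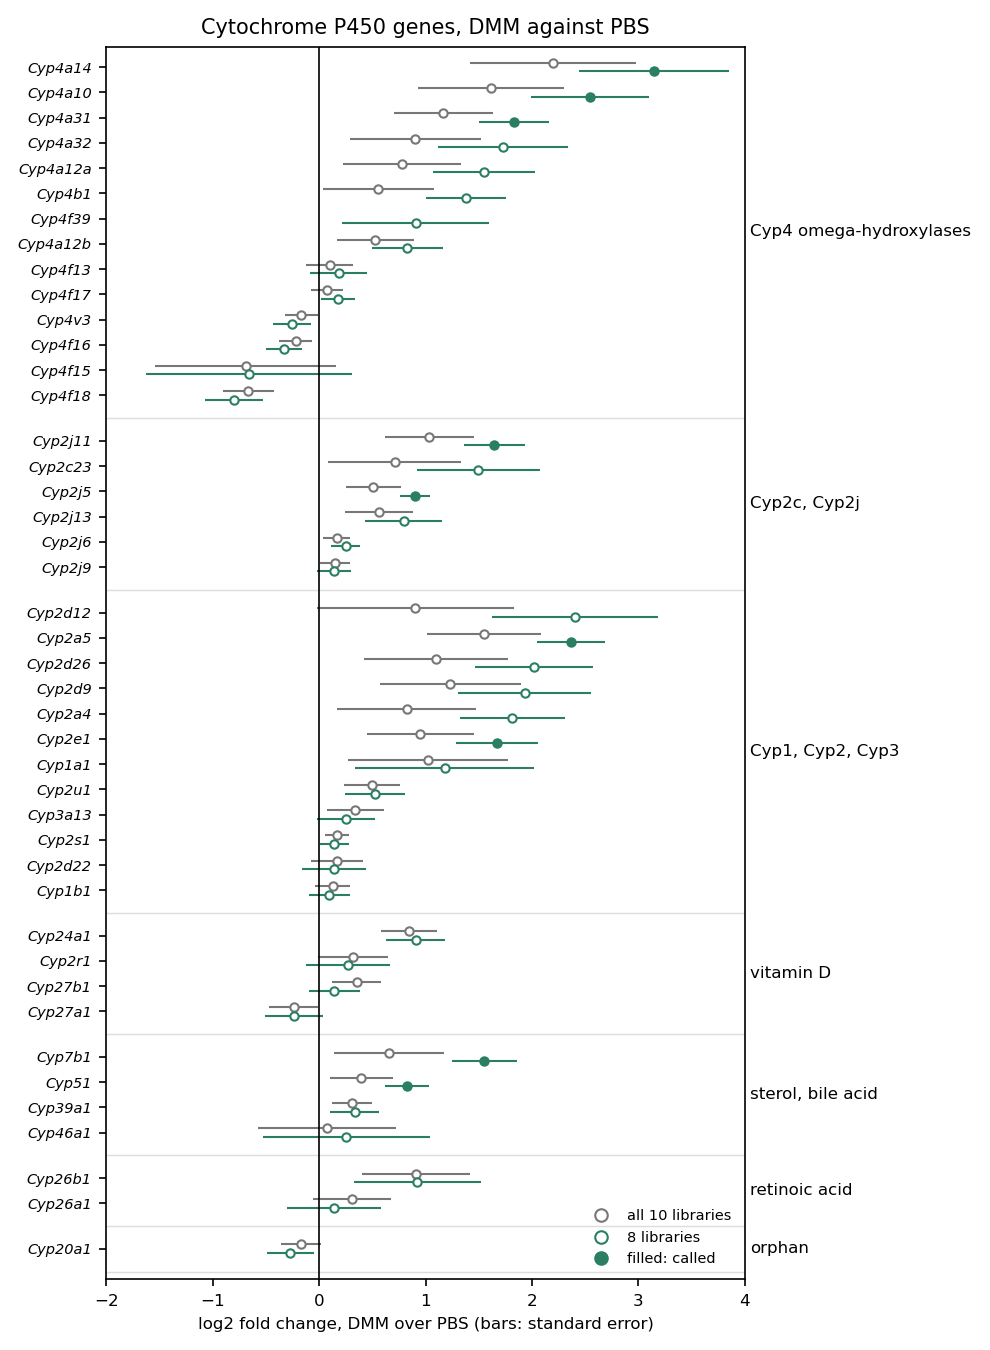
Log2 fold change of each described P450 gene in DMM over PBS kidneys, with its standard error, from edgeR over all 10 libraries (grey) and over the 8 libraries (green), ordered by role. Filled points passed the test, which 9 genes did over the 8 libraries and 0 over all 10, and Cyp4f39 was not tested over all 10.

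The omega-hydroxylases of fatty acids made up the largest role, with 14 genes. Over the 8 libraries 3 of 14 were called higher, all of the Cyp4a subfamily, and 0 lower, with a median log2 fold change of 0.87 and a range from -0.80 to 3.15. Over all 10, 0 of 13 were called and the median was 0.53. These medians include Cyp4a32, with log2 fold changes of 1.73 over the 8 libraries and 0.90 over all 10. Over the 8 libraries the median also includes Cyp4f39 (0.91). Both genes passed the count minimum mainly through DMM kidneys. Cyp4a14 (chromosome 4, 115486200 to 115496142), which hydroxylates medium and long fatty acids, stood at 5.58, 6.34, 28.9, 4.01 and 12.6 CPM per kb in PBS 1 to 5 and at 9.87, 28.2, 91.01, 12.5 and 121 in DMM 1 to 5. DMM 3 and DMM 5 were far above every other library, while DMM 4 lay just below PBS 5, so that the groups overlapped even over the 8 libraries. Its log2 fold change was 3.15 over the 8 libraries (standard error 0.70, adjusted p = 0.0309) and 2.19 over all 10 (standard error 0.78, adjusted p = 0.387), in the quasi-likelihood test of edgeR. Cyp4a10 (chromosome 4, 115518264 to 115533649), a close relative, had 14.2, 15.8, 48.5, 4.54 and 14.3 CPM per kb in PBS and 12.5, 49.1, 88.2, 22.4 and 125 in DMM kidneys. Again DMM 3 and DMM 5 were highest, PBS 3 reached the level of DMM 2, and DMM 1 lay among the PBS libraries. With the same test, the log2 fold change of Cyp4a10 was 2.54 over the 8 libraries (standard error 0.56, adjusted p = 0.0287) and 1.61 over all 10 (standard error 0.69, adjusted p = 0.435). Cyp4a31 (chromosome 4, 115563649 to 115579015) was measured at 16.5, 17.3, 42.1, 9.52 and 16.3 CPM per kb in PBS 1 to 5 and 16.04, 39.4, 65.8, 28.9 and 77.9 in DMM 1 to 5. The 4 DMM kidneys of the 8 libraries all lay above the 4 PBS kidneys, and over all 10 the groups overlapped through PBS 3 and DMM 1. Its log2 fold change was 1.83 over the 8 libraries (standard error 0.33, adjusted p = 0.0137) and 1.17 over all 10 (standard error 0.46, adjusted p = 0.418), again from edgeR. Calls of Cyp4a14 and Cyp4a10 over the 8 libraries were lost when DMM 3, DMM 5 or any PBS library was left out (edgeR, adjusted p between 0.0623 and 0.106 for Cyp4a14 and between 0.0727 and 0.0922 for Cyp4a10), and that of Cyp4a31 when PBS 5 was left out (adjusted p = 0.0533). With a single library left out of the 8, log2 fold changes ran from 2.62 to 3.57 for Cyp4a14 and 2.12 to 2.84 for Cyp4a10. Those of Cyp4a31 ran from 1.58 to 2.04. In bulk tissue, fewer proximal tubule cells and less of an RNA per cell cannot be told apart.

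**Figure D2:**
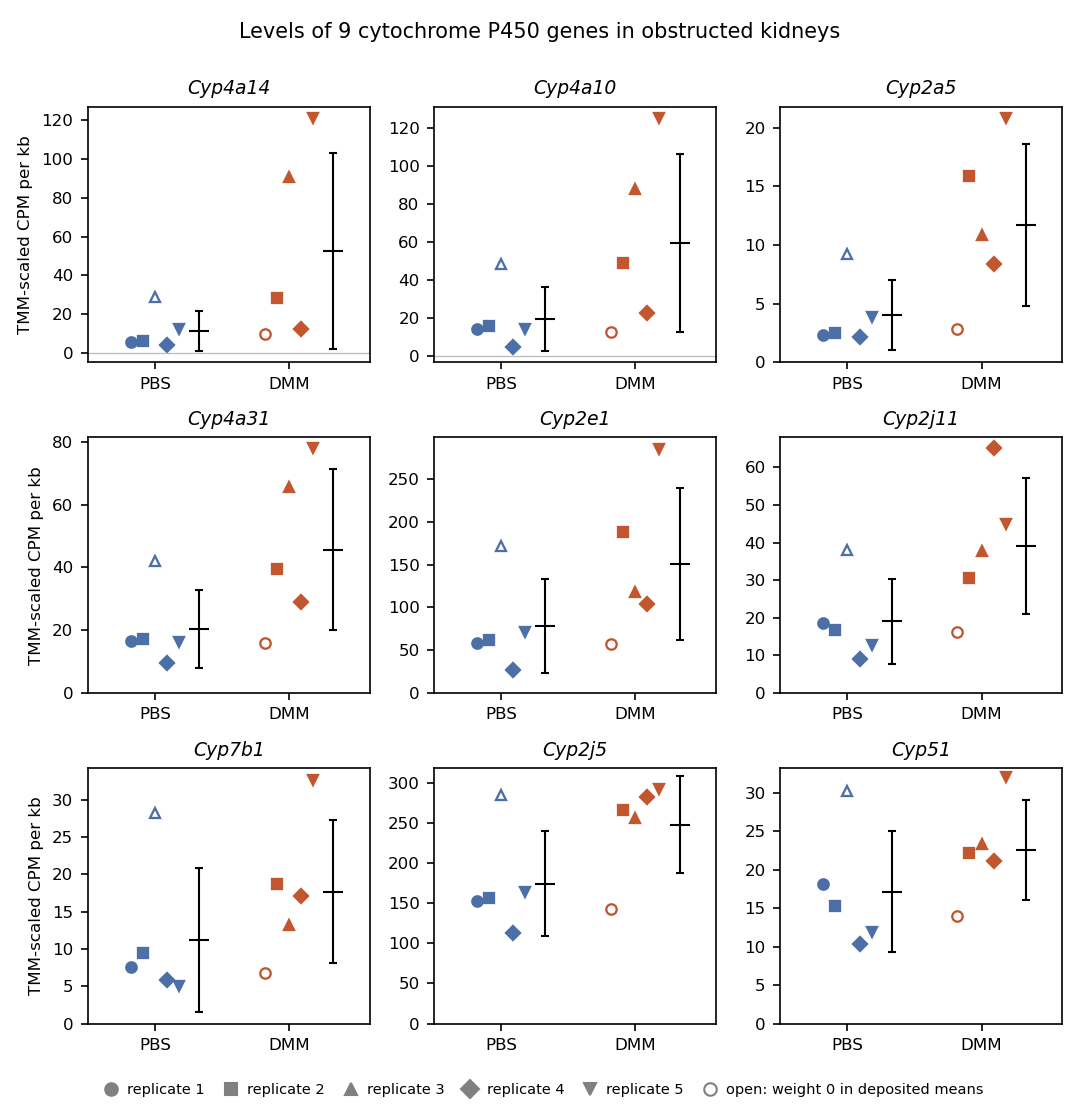
Level of the 9 P450 genes called higher over the 8 libraries, in TMM-scaled CPM per kb, in each PBS (blue) and DMM (orange) kidney, with a symbol per replicate and the mean and SD of all 5 kidneys in black. Open symbols are PBS 3 and DMM 1, which have a weight of 0 in the deposited means, and in each panel PBS 3 is the highest PBS kidney and DMM 1 the lowest DMM kidney.

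The remaining Cyp4a genes lie in the same cluster on chromosome 4 and share sequence. Of 100-base stretches of their transcripts, Cyp4a12a and Cyp4a12b had 35.8% and 36.2% in common with other genes, Cyp4a32 18.2%, Cyp4a10 12.2% and Cyp4a31 7.3%, against 0 for Cyp4a14, so that reads of the first 5 could be split among them. Cyp4a12a, the main source of the vasoconstrictor 20-HETE in male mice, and Cyp4a12b were not called by edgeR, with log2 fold changes of 1.55 and 0.83 over the 8 libraries and 0.78 and 0.53 over all 10, but Cyp4a12a passed over the 8 libraries with DESeq2 (adjusted p = 0.0143) and without DMM 4 (edgeR, adjusted p = 0.0495). Cyp4b1 (chromosome 4, 115624725 to 115647723), which acts on shorter fatty acids and also activates some toxins, is the neighbour of the cluster. It was the most abundant gene of the role, with 70.6, 59.98, 214, 30.5 and 71.5 CPM per kb in PBS and 52.4, 182, 118, 75.6 and 229 in DMM kidneys. PBS 3 and DMM 5 were the highest libraries and PBS 4 the lowest, and over the 8 libraries every DMM kidney was above every PBS kidney. The log2 fold change of 1.38 over the 8 libraries (standard error 0.37, adjusted p = 0.0614) and 0.56 over all 10 (standard error 0.52, adjusted p = 0.676) did not pass edgeR's test with either set, although it did over the 8 libraries with DESeq2 (adjusted p = 0.00354) and, by edgeR, without DMM 4 (adjusted p = 0.00443) and without a filter on low counts (adjusted p = 0.0497).

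Cyp4f genes include several that inactivate leukotriene B4 and related lipids. None of the 6 was called by edgeR or DESeq2 with either set of libraries. Over the 8 libraries 3 of 6 had a positive log2 fold change, Cyp4f13 at 0.18, Cyp4f17 at 0.18 and Cyp4f39 at 0.91, and 3 a negative, and over all 10 2 of 5 were positive. Cyp4f18, the leukotriene B4 hydroxylase of white blood cells, was at 7.11, 5.01, 5.82, 11.2 and 6.98 CPM per kb in PBS and 5.36, 4.65, 4.28, 5.47 and 3.01 in DMM kidneys. PBS 4 was highest and DMM 5 lowest, with overlap of the groups. Its log2 fold change was -0.80 over the 8 libraries (standard error 0.27, adjusted p = 0.124) and -0.66 over all 10 (standard error 0.24, adjusted p = 0.387) by edgeR, with an adjusted p of 0.0309 when DMM 4 was left out of the 8 libraries. Cyp4f18 overlaps Zfp961 on the opposite strand, and whether counting used the strand is not given in the sources used here. For Cyp4f16 the levels were 8.95, 8.90, 7.94, 8.41 and 9.55 CPM per kb in PBS and 9.08, 7.77, 7.72, 4.89 and 8.06 in DMM kidneys. DMM 4 was far below the rest, and over the 8 libraries every DMM kidney was below every PBS kidney. The difference did not pass the test, with log2 fold changes of -0.33 over the 8 libraries (standard error 0.17, adjusted p = 0.300) and -0.22 over all 10 (standard error 0.15, adjusted p = 0.573) from edgeR, which were -0.19 and -0.10 without DMM 4. Cyp4f15 was near its limit of detection, at 0, 0.490, 0.222, 1.14 and 0.438 CPM per kb in PBS and 0.108, 0.0276, 0.422, 0.265 and 0.586 in DMM kidneys. PBS 4 alone stood out. Its log2 fold change of -0.66 over the 8 libraries (standard error 0.97, edgeR, adjusted p = 0.738) became 0.09 without PBS 4. Over all 10 it was -0.69 (standard error 0.85), and ran from -1.13 to -0.0095 with a single library left out. For Cyp4f17 the value over all 10 libraries was 0.07 with TMM scaling and -0.01 with library size alone.

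In the epoxygenase families, 2 of 6 genes were called higher over the 8 libraries and 0 of 6 over all 10, with median log2 fold changes of 0.85 and 0.54. Cyp2j5 (chromosome 4, 96628773 to 96664154), a renal epoxygenase of the proximal tubule, was at 153, 156, 285, 113 and 164 CPM per kb in PBS 1 to 5 and at 143, 266, 256, 282 and 292 in DMM 1 to 5. The libraries formed a low set of 4 PBS kidneys with DMM 1, from 113 to 164 CPM per kb, and a high set of 4 DMM kidneys with PBS 3, from 256 to 292. Over the 8 libraries the means were 147 ± 22.8 (SD, n = 4) in PBS and 274 ± 16.3 (SD, n = 4) in DMM kidneys. In edgeR's test the log2 fold change was 0.90 over the 8 libraries (standard error 0.14, adjusted p = 0.00823) and 0.51 over all 10 (standard error 0.26, adjusted p = 0.497). Cyp2j11 (chromosome 4, 96294508 to 96348662), of the same subfamily and chromosome, had 18.5, 16.8, 38.04, 8.96 and 12.8 CPM per kb in PBS and 16.3, 30.7, 37.9, 65.1 and 45.03 in DMM kidneys. DMM 4 was the highest library here, unlike in Cyp4a14, Cyp4a10 and Cyp4a31, and PBS 3 was level with DMM 3. For Cyp2j11 the log2 fold change was 1.65 over the 8 libraries (standard error 0.29, adjusted p = 0.0117) and 1.04 over all 10 (standard error 0.41, adjusted p = 0.418) (edgeR). The call of Cyp2j5 over the 8 libraries was kept without any single library, and that of Cyp2j11 was lost without PBS 5 (edgeR, adjusted p = 0.0532). The log2 fold change of Cyp2j11 ran from 1.41 to 1.79 with a single library left out of the 8. The other 4 genes were not called, with log2 fold changes from 0.14 for Cyp2j9 to 1.50 for Cyp2c23 over the 8 libraries and 0.15 and 0.71 over all 10. Cyp2c23, which makes epoxides in the tubule, passed over the 8 libraries without DMM 4 (edgeR, adjusted p = 0.00486).

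Among 12 genes of the other xenobiotic families, 2 were called higher over the 8 libraries and 0 over all 10, with median log2 fold changes of 1.43 and 0.86 and no negative value in either set. Cyp2a5 (chromosome 7, 26835305 to 26843548), which oxidises coumarin and nicotine, had 2.30, 2.53, 9.22, 2.16 and 3.83 CPM per kb in PBS 1 to 5 and 2.86, 15.8, 10.8, 8.33 and 20.8 in DMM 1 to 5. Every DMM kidney except DMM 1 was above the 4 PBS kidneys other than PBS 3, which lay between DMM 4 and DMM 3. Over the 8 libraries the means were 2.70 ± 0.767 (SD, n = 4) in PBS and 13.9 ± 5.53 (SD, n = 4) in DMM kidneys. It had the smallest adjusted p of the P450 genes over these libraries. Its log2 fold change was 2.37 over the 8 libraries (standard error 0.32, adjusted p = 0.00425) and 1.55 over all 10 (standard error 0.54, adjusted p = 0.387) (edgeR's quasi-likelihood test), and the call over the 8 libraries was kept without any single library. Cyp2a4, a steroid hydroxylase with nearly the same sequence, was not called by edgeR (log2 fold change 1.82, adjusted p = 0.0599 over the 8 libraries, 0.82 over all 10), but passed over the 8 with DESeq2 (adjusted p = 0.00177) and without DMM 4 (edgeR, adjusted p = 0.00915). The genes had 12.1% (Cyp2a5) and 11.2% (Cyp2a4) of 100-base stretches in common with other genes, mainly with each other.

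Cyp2e1 (chromosome 7, 140763739 to 140774987), which oxidises ethanol, acetone and small toxins, was at 58.9, 61.4, 171, 26.9 and 71.1 CPM per kb in PBS and at 56.9, 189, 118, 104 and 286 in DMM kidneys. DMM 5 was highest, DMM 2 and PBS 3 followed, and DMM 1 sat among the PBS kidneys. By edgeR its log2 fold change was 1.67 over the 8 libraries (standard error 0.39, adjusted p = 0.0346) and 0.95 over all 10 (standard error 0.50, adjusted p = 0.513). The call over the 8 libraries was lost without any single library other than DMM 4 (edgeR, adjusted p between 0.0565 and 0.08999). The log2 fold change ran from 1.32 to 1.86 with a single library left out of the 8. Cyp2d9, a steroid hydroxylase that is higher in male than in female mice, had 4.70, 3.30, 8.97, 2.02 and 2.66 CPM per kb in PBS and 2.42, 8.80, 14.3, 1.84 and 23.4 in DMM kidneys. DMM 5 and DMM 3 were high, but DMM 4 was the lowest library of all. The log2 fold change of 1.93 over the 8 libraries (standard error 0.63, adjusted p = 0.108) and 1.23 over all 10 (standard error 0.66, adjusted p = 0.513) did not pass edgeR's test, and passed over the 8 libraries without DMM 4 (adjusted p = 0.00184) and with DESeq2 (adjusted p = 0.00899). Cyp2d9 had 7.9% of 100-base stretches in common with other genes. The 8 remaining genes of these families were not called by edgeR with either set, but Cyp2d12 and Cyp2d26 passed over the 8 libraries with DESeq2 (adjusted p = 0.0186 and 0.00165) and without DMM 4 (edgeR, adjusted p = 0.0225 and 0.00643). Cyp1b1 differed little, from 35.1 to 56.1 CPM per kb in PBS and from 38.2 to 64.0 in DMM kidneys. The log2 fold change of Cyp1b1 was 0.13 over all 10 libraries, and over the 8 it was 0.10 with TMM scaling and -0.03 with library size alone.

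No vitamin D gene passed edgeR's test with either set of libraries. Cyp24a1 (chromosome 2, 170482708 to 170497145), which degrades active vitamin D and is induced by its receptor, was at 9.64, 15.5, 11.97, 15.5 and 19.96 CPM per kb in PBS and 16.8, 16.7, 27.8, 37.2 and 31.98 in DMM kidneys. DMM 3, DMM 4 and DMM 5 were the 3 highest libraries, while DMM 1 and DMM 2 lay within the PBS range. The log2 fold change was nearly the same in both sets, 0.91 over the 8 libraries (standard error 0.28, adjusted p = 0.0891) and 0.85 over all 10 (standard error 0.26, adjusted p = 0.378) from edgeR. Over all 10 libraries it had the smallest adjusted p of the P450 genes, which did not pass, and an unadjusted p of 0.00805. It passed over the 8 libraries with DESeq2 (adjusted p = 0.0241) and without DMM 2 (edgeR, adjusted p = 0.0361). Cyp24a1 overlaps Pfdn4 on the opposite strand. Cyp27a1, a mitochondrial sterol hydroxylase that can also activate vitamin D, had 16.7, 16.5, 17.5, 11.9 and 14.6 CPM per kb in PBS and 14.7, 15.2, 12.4, 6.28 and 16.8 in DMM kidneys. DMM 4 was lowest and the other libraries overlapped. The log2 fold changes of Cyp27a1 were -0.24 and -0.24 over the 8 and all 10 libraries (edgeR, adjusted p = 0.663 and 0.680), and -0.01 and -0.06 without DMM 4. Cyp27b1, which makes active vitamin D, and the liver-type activating enzyme Cyp2r1 had log2 fold changes of 0.14 and 0.27 over the 8 libraries and 0.35 and 0.32 over all 10. That of Cyp2r1 became -0.28 and -0.09 without DMM 4, which stood at 2.68 CPM per kb against 0.833 to 1.31 in the rest, and that of Cyp27b1 over the 8 became -0.03 without DMM 3.

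Of 4 enzymes of sterol, oxysterol and bile acid metabolism, 2 were called higher over the 8 libraries and 0 over all 10. Cyp7b1 (chromosome 3, 18071950 to 18243338), which hydroxylates oxysterols and some steroids, had 7.60, 9.43, 28.3, 5.87 and 4.997 CPM per kb in PBS 1 to 5 and 6.72, 18.7, 13.3, 17.1 and 32.7 in DMM 1 to 5. PBS 3 lay close to DMM 5 at the top, and DMM 1 lay within the other PBS kidneys. The log2 fold change was 1.55 over the 8 libraries (standard error 0.31, adjusted p = 0.0197) and 0.66 over all 10 (standard error 0.52, adjusted p = 0.615) (edgeR). The call over the 8 libraries was lost without PBS 1, PBS 4 or PBS 5 (edgeR, adjusted p = 0.0562, 0.0757 and 0.0721). With a single library left out of the 8, the log2 fold change ran from 1.23 to 1.73. Cyp51 (chromosome 5, 4081145 to 4104746), the demethylase of lanosterol in cholesterol synthesis, was at 18.2, 15.3, 30.2, 10.3 and 11.9 CPM per kb in PBS and 14.02, 22.2, 23.3, 21.2 and 32.1 in DMM kidneys. DMM 5 and PBS 3 were highest, and the 4 DMM kidneys of the 8 libraries were above the 4 PBS kidneys by a narrow margin. With edgeR, the log2 fold change of Cyp51 was 0.83 over the 8 libraries (standard error 0.21, adjusted p = 0.0464) and 0.40 over all 10 (standard error 0.30, adjusted p = 0.595), and the call over the 8 libraries was lost without DMM 2, DMM 3, DMM 5, PBS 2, PBS 4 or PBS 5 (adjusted p between 0.0702 and 0.150), with library size alone and without a filter on low counts. With a single library left out of the 8, the log2 fold change of Cyp51 ran from 0.68 to 0.98. Cyp51 overlaps Akap9 on the opposite strand. Cyp39a1 and Cyp46a1, which hydroxylate oxysterols and cholesterol, were not called, with log2 fold changes of 0.33 and 0.26 over the 8 libraries and 0.31 and 0.08 over all 10. Without DMM 4 that of Cyp39a1 was 0.05 and 0.09. Cyp46a1, under 1 CPM per kb in every library, ran from 0.03 without DMM 3 to 0.67 without DMM 4 over the 8 libraries and from -0.10 without PBS 4 to 0.40 without DMM 4 over all 10.

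Cyp26b1, which degrades retinoic acid, was at 2.23, 1.41, 1.22, 1.55 and 2.35 CPM per kb in PBS and 2.21, 0.553, 5.73, 5.87 and 2.12 in DMM kidneys. DMM 3 and DMM 4 were high and DMM 2 was the lowest library, so that the groups overlapped. By edgeR its log2 fold change was 0.92 over the 8 libraries (standard error 0.60, adjusted p = 0.420) and 0.91 over all 10 (standard error 0.51, adjusted p = 0.524), which became 0.58 and 0.60 without DMM 4 and 1.27 and 1.20 without DMM 2. Cyp26a1 was under 1 CPM per kb in every library. Cyp20a1, a P450 with no established substrate, had 14.4, 13.5, 14.02, 16.5 and 16.5 CPM per kb in PBS and 16.1, 14.6, 14.3, 7.21 and 14.4 in DMM kidneys. DMM 4 was far below the other 9 libraries, which overlapped. The log2 fold changes of Cyp20a1 were -0.27 and -0.17 over the 8 and all 10 libraries (edgeR, adjusted p = 0.522 and 0.722), and -0.08 and -0.01 without DMM 4.

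When levels were summed within the 25 subfamilies that had a described gene, the largest ratio of DMM to PBS means was in Cyp4a. Its 6 genes summed to 40.8, 44.6, 127, 19.6 and 46.8 CPM per kb in PBS 1 to 5 and 41.6, 124, 252, 71.7 and 334 in DMM 1 to 5, a ratio of means of 5.15 over the 8 libraries and 2.95 over all 10. The 5 Cyp2j genes summed to 201, 203, 364, 148 and 213 in PBS and 195, 339, 325, 417 and 371 in DMM kidneys, with ratios of 1.90 and 1.46. Among the 4 DMM kidneys of the 8 libraries, Cyp4a thus ran from 71.7 to 334 and Cyp2j from 325 to 417 CPM per kb, with DMM 4 the lowest in the former and the highest in the latter. The Cyp4f sum stayed between 21.4 and 33.4 CPM per kb in all 10 libraries, with ratios of 0.895 over the 8 libraries and 0.899 over all 10. The Cyp2a, Cyp2e, Cyp7b, Cyp2c, Cyp2d and Cyp4b subfamilies had ratios from 2.60 to 3.85 over the 8 libraries and from 1.47 to 1.98 over all 10.

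Of the 20 proximal tubule markers, 8 were called higher over the 8 libraries and 0 over all 10 by edgeR, where 3 were higher at an unadjusted p under 0.05, with median log2 fold changes of 1.36 and 0.67. DESeq2 called 16 and 0. The count of 8 became 19 without DMM 4, 5 without DMM 5, 5 without PBS 1 and 4 without PBS 5, and 6 or 7 without any of the others. The most abundant was Kap, at a mean of 2269.8 CPM, and none of the 20 was at or near 0. The part of these markers in the P450 results was not tested. As a description chosen after the values were seen, the level of each of 18 named P450 genes in CPM was divided by the summed CPM of the 20 markers in the same library. Per 1000 CPM of markers, Cyp4a14 was at 2.52, 2.82, 5.19, 4.24 and 7.31 in PBS 1 to 5 and 5.78, 6.34, 22.2, 3.75 and 21.1 in DMM 1 to 5. DMM 3 and DMM 5 remained high on this scale, and the other 8 libraries overlapped. On this scale, ratios of DMM to PBS means over the 8 libraries were 3.17 for Cyp4a14, 2.30 for Cyp4a10, 1.85 for Cyp2a5, 1.36 for Cyp4a31, 1.33 for Cyp2j11, 1.23 for Cyp2e1, 1.09 for Cyp7b1, 0.732 for Cyp2j5 and 0.692 for Cyp51. Over all 10 they were 2.68, 1.94, 1.69, 1.34, 1.34, 1.20, 1.02, 0.846 and 0.809 in the same order. The ratio of Cyp2j11 rested on DMM 4, at 14.4 against 5.08 to 6.82 in DMM 2, DMM 3 and DMM 5, and was 0.979 without it. Of the 9 genes, which had been called for being higher in these same libraries, the ratio was above 1 in 7 with either set. It was above 1 in 6 over the 8 libraries without DMM 4. Values of the groups overlapped on this scale over the 8 libraries in Cyp4a14, Cyp4a10, Cyp4a31, Cyp2j11, Cyp2e1, Cyp7b1 and Cyp2j5. They did not overlap in Cyp2a5, which was higher in DMM kidneys, and Cyp51, which was lower. No test was run on these ratios. Of all 18 named genes the ratio was above 1 in 9 with either set and in 8 over the 8 libraries without DMM 4. The lowest values over the 8 were in Cyp4f15 (0.174), Cyp4f18 (0.201), Cyp4f16 (0.290) and Cyp20a1 (0.290). The marker sum over the 8 libraries was 2461.7 to 5836.5 CPM in PBS and 8647 to 14904 CPM in DMM kidneys. A gene at the same level in both groups therefore has a ratio well below 1 on this scale.

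**Figure D3:**
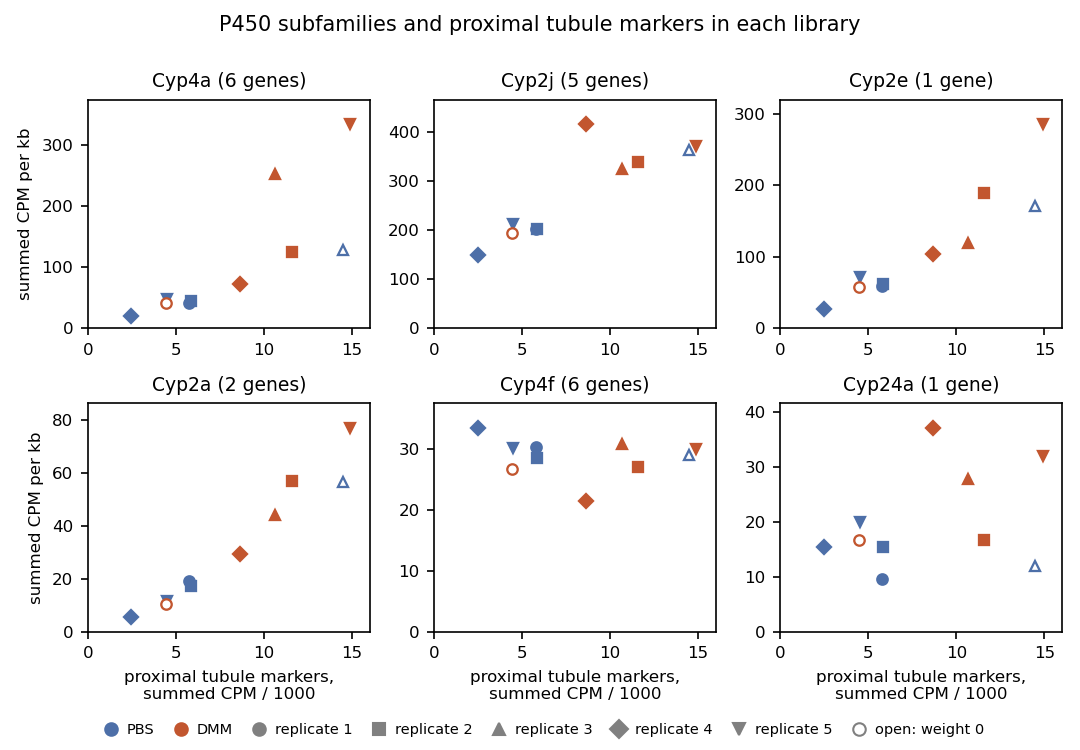
Summed level of 6 P450 subfamilies (CPM per kb) in each library against the summed level of 20 proximal tubule markers (CPM), with PBS in blue, DMM in orange, a symbol per replicate and open symbols for PBS 3 and DMM 1. PBS 3 lies at 14473 CPM of markers and DMM 1 at 4445 CPM, and the Cyp4f sum stays between 21.4 and 33.4 CPM per kb across that range.

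Some markers of other cell types were also called. Over the 8 libraries edgeR called 3 of 9 fibroblast markers lower (Col1a2, Lum and Postn), 3 of 10 macrophage and monocyte markers lower (C1qb, Cd68 and Ly6c2) and 1 of 7 T cell markers lower (Cd4). DESeq2 called 5, 7 and 4 lower on the same libraries. Over all 10 edgeR and DESeq2 called 0 of each, and edgeR had 0, 6 and 5 lower at an unadjusted p under 0.05 and a fold change above 1.5. In sum, the fibroblast markers gave 6664, 9806, 5260.2, 14478 and 9223 CPM in PBS and 11308, 5340.2, 3750.1, 7371 and 4299.8 CPM in DMM kidneys, with Col3a1 the most abundant. The macrophage markers gave 2366, 2422, 1888, 2152 and 2572 CPM and 2227, 1582, 1249.6, 1021 and 1274 CPM, with Lyz2 the most abundant, and the T cell markers, led by Cd4, 54.3, 56.03, 52.96, 46.9 and 79.2 CPM and 50.3, 42.6, 17.7, 21.6 and 22.8 CPM. Macrophage markers were lower in every DMM kidney of the 8 libraries than in every PBS kidney, and fibroblast markers overlapped through DMM 4. The count of 3 fibroblast markers became 2 without DMM 2, 5 without DMM 4 and 1 without DMM 3, DMM 5, PBS 2, PBS 4 or PBS 5. Without DMM 4 the macrophage count became 8 and the T cell count 3. The latter was 4 without DMM 2 and 0 without DMM 3, DMM 5, PBS 2, PBS 4 or PBS 5, and the macrophage count was 2 without any library other than DMM 4. Markers of the loop of Henle and distal tubule were called higher in 3 of 6 over the 8 libraries, but in 5 without DMM 4, 2 without DMM 2 and 0 without DMM 3, DMM 5, PBS 2, PBS 4 or PBS 5. Markers of the collecting duct were called higher in 2 of 7, and in 5 without DMM 4 and 1 without DMM 3 or PBS 4. Over all 10 libraries edgeR called 0 of either list, with 0 and 1 higher at an unadjusted p under 0.05 and a fold change above 1.5, and DESeq2 called 0 and 1. All 10 interferon response genes were lower over the 8 libraries, also without any single library. Over all 10 libraries edgeR and DESeq2 called 0 of them, all 10 were lower at an unadjusted p under 0.05, and all 10 were called when DMM 1 was left out. Without DMM 1, 1 fibroblast, 2 macrophage and 1 T cell marker were also called lower and 1 collecting duct marker higher over 9 libraries. Markers of podocytes, injured tubule, endothelium, neutrophils and B cells had 0 called by edgeR with either set of libraries. Without DMM 4, 1 injured tubule and 1 B cell marker were called lower over 7 libraries, and DESeq2 called 1 B cell marker lower over the 8. Of 2 adipocyte markers tested over the 8, Pck1, which the proximal tubule also expresses, was called higher (edgeR, adjusted p = 0.0495). It lost its call without any single library other than DMM 4. The other marker had a log2 fold change of -3.75 and was not called. The part of these lists in the P450 results was not tested.

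Liver or adrenal tissue would bring P450 genes of its own. Adrenal cortex markers summed to at most 36.3 CPM, in PBS 4, with Cyp11b2, Hsd3b1 and Nr5a1 at or near 0, and 0 of 3 tested were called by edgeR with either set of libraries, while DESeq2 called 1 of 7 lower over the 8 and 0 over all 10. Of 6 tested hepatocyte markers 4 were called higher over the 8 libraries (Alb, Apob, Fgb and Serpina1a), and 0 over all 10, where 4 were higher at an unadjusted p under 0.05. Of 10 hepatocyte markers DESeq2 called 5 higher over the 8 and 1 over all 10. The hepatocyte sum was 112, 100.2, 208, 67.6 and 75.4 CPM in PBS 1 to 5 and 79.3, 234, 254, 644 and 324 CPM in DMM 1 to 5, most of it Apob, and DMM 4 stood out. Albumin RNA was at most 1.52 CPM in any library, and Cyp7a1 of the liver was at or near 0. The count of 4 became 6 without DMM 4, 2 without DMM 2, DMM 3 or DMM 5, and 1 without PBS 2, PBS 4 or PBS 5, and the count of 0 over all 10 became 1 without DMM 1. The part of these markers in the P450 levels was not tested.

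Other genes serve P450 enzymes with electrons and haem or act on their products. None of 11 tested redox partners was called with either set of libraries. Among them, Por, the reductase that feeds electrons to most P450 enzymes of the endoplasmic reticulum, had log2 fold changes of 0.34 and 0.16 over the 8 and all 10 libraries (edgeR, adjusted p = 0.501 and 0.801). None of 12 genes of haem synthesis and breakdown was called. Without DMM 4, 1 gene of each list was higher over 7 libraries. Of 3 epoxide hydrolases 1 was called higher over the 8 libraries, Ephx2, the soluble enzyme that opens arachidonic acid epoxides. It was at 82.03, 86.8, 150.5, 61.2 and 95.9 CPM in PBS and 89.99, 142, 129, 142 and 157 CPM in DMM kidneys. The pattern was that of Cyp2j5, with PBS 3 among the DMM kidneys and DMM 1 among the PBS kidneys. With edgeR the log2 fold change of Ephx2 was 0.81 over the 8 libraries (standard error 0.15, adjusted p = 0.0152) and 0.47 over all 10 (standard error 0.23, adjusted p = 0.484). The call over the 8 libraries was lost without DMM 5 (edgeR, adjusted p = 0.0543) or PBS 1 (0.0512). The log2 fold change ran from 0.69 to 0.89 with a single library left out of the 8. Tbxas1, a P450 by structure that makes thromboxane and is known from platelets and macrophages, had 23.7, 29.3, 22.7, 23.7 and 26.7 CPM in PBS and 21.5, 18.5, 17.5, 14.2 and 16.8 CPM in DMM kidneys. It was called lower over the 8 libraries, at -0.63 (adjusted p = 0.0276) against -0.51 over all 10 (edgeR, adjusted p = 0.378), and overlaps Hipk2 on the opposite strand. Its call was lost without any single library other than DMM 2, and without DMM 4 its adjusted p was 0.00394 (edgeR) with a fold change under 1.5. Across these settings the log2 fold change of Tbxas1 ran from -0.68 to -0.56. Together these partner lists had 1 of 28 genes called higher and 1 lower over the 8 libraries (2.73% and 3.56% of all tested genes), with a median log2 fold change of 0.12, and 0 called over all 10, with 0 at an unadjusted p under 0.05 and a fold change above 1.5 in either direction and 0 by DESeq2. Without DMM 1 alone, 1 partner was lower over 9 libraries.

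Among 27 tested receptors and transcription factors known to act on P450 genes, edgeR called 4 higher and 1 lower over the 8 libraries. Of all tested genes 2.73% were called higher and 3.56% lower there, so the 1 lower was near the share of all genes. Over all 10 edgeR called 0 of the 27, 1 was higher at an unadjusted p under 0.05 and a fold change above 1.5 (1.91% of all tested genes), and DESeq2 called 0. The median log2 fold changes of the 27 were 0.25 and 0.14. Ppara, the receptor that drives Cyp4a genes, was at 11.2, 13.7, 30.8, 8.25 and 19.8 CPM in PBS 1 to 5 and 13.6, 30.6, 56.8, 38.9 and 48.8 CPM in DMM 1 to 5. DMM 3 and DMM 5 were the highest libraries, DMM 4 the next, and PBS 3 was level with DMM 2. The log2 fold change of Ppara was 1.73 over the 8 libraries (standard error 0.29, adjusted p = 0.0109) and 1.17 over all 10 (standard error 0.41, adjusted p = 0.387), by edgeR's quasi-likelihood test, and the call over the 8 libraries was kept without any single library. Hnf4a, which keeps up many genes of the proximal tubule and liver, was at 243, 262, 407, 168 and 275 CPM in PBS and 215, 409, 448, 384 and 500.4 CPM in DMM kidneys, with PBS 3 among the DMM kidneys and DMM 1 among the PBS kidneys. Hnf4a, the bile acid receptor gene Nr1h4 and the vitamin D receptor gene Vdr were also called higher, with log2 fold changes of 0.88, 0.94 and 0.62 over the 8 libraries and 0.53, 0.56 and 0.40 over all 10. The retinoic acid receptor gene Rarg was called lower, at -0.71 and -0.50. Calls of Hnf4a, Nr1h4, Vdr and Rarg were all lost without DMM 3, DMM 5, PBS 1 or PBS 2, where Ppara alone remained, and those of Nr1h4, Vdr and Rarg also without PBS 4 (edgeR, adjusted p between 0.0512 and 0.0861). Without PBS 5 the calls of Vdr and Rarg were lost, and without DMM 1 alone 1 of the 27 was lower over 9 libraries. With a single library left out of the 8, log2 fold changes ran from 0.74 to 0.95 for Hnf4a and 0.81 to 1.05 for Nr1h4. Those of Vdr ran from 0.52 to 0.66 and those of Rarg from -0.82 to -0.60. Hnf4a overlaps Hnf4aos on the opposite strand. The receptors for foreign compounds were not called, with log2 fold changes over the 8 and all 10 libraries of -0.17 and -0.06 for Ahr and 0.53 and 0.40 for Nr1i2.

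Promoter sequences from RefSeq (GRCm38.p6) were matched for 30 of the 43 described genes. The other 13 had no entry matched by name in the promoter set used here, and no motif was searched in them. They were Cyp24a1, Cyp2c23, Cyp2d12, Cyp2d22, Cyp2u1, Cyp39a1, Cyp4a10, Cyp4a12a, Cyp4a12b, Cyp4a14, Cyp4a31, Cyp4f17 and Cyp7b1, of which 4 were among the 9 called. Cyp2a5, called by edgeR over the 8 libraries, and Cyp2a4, called there by DESeq2 but not by edgeR, are shown because the 250 bases before their RefSeq starts were 98.4% identical, with 245 of 249 aligned bases the same. Capitals in the lines of Cyp2a4 (chr7:26306942-26307191, plus strand) and Cyp2a5 (chr7:26835089-26835338, plus strand) mark the bases that differ. The starts of both genes in the deposited table, 26307169 and 26835305, lie inside these stretches.
Cyp2a4: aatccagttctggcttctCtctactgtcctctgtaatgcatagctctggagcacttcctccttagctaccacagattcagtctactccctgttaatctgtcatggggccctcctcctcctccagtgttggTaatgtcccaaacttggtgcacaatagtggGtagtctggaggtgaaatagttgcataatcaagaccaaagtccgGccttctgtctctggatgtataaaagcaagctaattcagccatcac
Cyp2a5: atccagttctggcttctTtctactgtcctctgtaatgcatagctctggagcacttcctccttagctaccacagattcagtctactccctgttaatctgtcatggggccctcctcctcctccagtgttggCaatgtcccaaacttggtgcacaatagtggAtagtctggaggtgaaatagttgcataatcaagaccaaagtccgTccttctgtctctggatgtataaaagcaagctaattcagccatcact
GTTAAT, part of the element of HNF1, was found on either strand in Cyp2a4, Cyp2a5, Cyp2d26 and Cyp4a32 (6.43% of 32851 promoters of this length). TNGCGTG, the core to which the Ah receptor binds, was found in 0 of the 30 (4.10% of all promoters). These matches of letters are a description, and binding was not measured.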

How the data were processed

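Gene counts from the table that the authors deposited (HISAT2 2.0.5, mm10) were used for all 10 libraries, with FPKM from the same deposited table as an alternative level. Genes were kept by filterByExpr of edgeR 4.0.16 and scaled by TMM (trimmed mean of M-values). Log2 fold changes and p-values were computed here from the authors' counts with edgeR's quasi-likelihood test, and p-values were adjusted by Benjamini-Hochberg over all tested genes. The log2 values and p-values that the authors deposited were not used. The signal that the authors deposited as group means (counts divided by DESeq2 size factors) served to find the weight of each library in those means. A call needed a fold change above 1.5 with adjusted p under 0.05. DESeq2 1.42.0 was the other tool. Levels were TMM-scaled CPM divided by the deposited gene length. Role and marker lists came from general knowledge. Members and lists were chosen with earlier results of these data known. The 8 libraries without PBS 3 and DMM 1 are those with a weight above 0 in the deposited means, and p-values over them take no account of how they were selected. Animals are the unit of each n. A single time point of obstructed kidneys was measured as RNA alone, so that enzyme activity, cell numbers and strand of reads are not known from these data.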

Additional observations from a re-analysis of the deposited data

Results flagged for a closer look

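Of 36 sets of 5 replicate values (18 named P450 genes in 2 groups), 7 had a value that stood apart from the other 4 by Dixon's ratio above 0.71. Chance gives about 1 in 20 where sets are independent, but these share the same 10 libraries and the genes were named for their calls, levels or fold changes, so the 7 are a description with no chance value. In 5 of them it was PBS 3 that was high: 48.5 against 4.54 to 15.8 CPM per kb in Cyp4a10, 42.1 against 9.52 to 17.3 in Cyp4a31, 214 against 30.5 to 71.5 in Cyp4b1, 9.22 against 2.16 to 3.83 in Cyp2a5 and 28.3 against 4.997 to 9.43 in Cyp7b1. In Cyp2j5 it was DMM 1, at 143 against 256 to 292 CPM per kb. In Cyp20a1 it was DMM 4, at 7.21 against 14.3 to 16.1 CPM per kb.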

How the results depend on the processing

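Over all 10 libraries 0 of the P450 genes tested (42 or 43 by setting) were called with every scaling, filter and single library left out, although 50 genes were called higher and 436 lower among all tested without DMM 1, and 14 and 36 with DESeq2. At an unadjusted p under 0.05 with the fold change kept, 6 P450 genes were higher and 1 was lower over all 10. Over the 8 libraries the 9 genes called higher became 16 with DESeq2, 19 at an unadjusted p, 7 with library size alone, 11 without a filter on low counts and 2 to 16 with a single library left out, and the 0 called lower became 1 at an unadjusted p and 0 to 1 with a single library left out. Replicate numbers did not pair the kidneys, with correlations of paired values from -0.287 to 0.406, and a block on them gave 0 calls with either set. With the block a sign changed over the 8 in Cyp26a1, Cyp27b1, Cyp2d22, Cyp46a1 and Cyp4f13 and over all 10 in Cyp46a1. The median over the 8 was 0.28 in place of 0.83, but there the block also took PBS 1 and DMM 3 out of the comparison. Partners and regulators had 0 called over all 10, with 0 to 2 lower when a single library was left out (2 without DMM 1), and 5 higher and 2 lower over the 8, with 1 (without DMM 5 or PBS 1) to 8 (without DMM 4) higher and 0 to 2 lower when a single library was left out. Of 594 results of the 18 named genes under other settings, 534 kept their sign and their call or lack of one. A call was lost in 42 and gained in 17, and the sign changed in 1. The settings for all 10 libraries included the fit of the 8 libraries itself. The 17 gained calls thus include the 9 already given for the 8 libraries. The size could still move without counting here, as in Cyp26b1 over the 8 libraries, from 0.16 to 1.27. The changed sign was that of Cyp4f15 over the 8 libraries, at 0.0854 without PBS 4. Its log2 fold change ran from -1.10 to 0.0854 with a single library left out, and was -1.51 with the block. Over all described genes the sign changed with a single library left out in 7 of 420 values over all 10 libraries (Cyp1b1, Cyp2r1, Cyp46a1 and Cyp4f13) and in 8 of 344 over the 8 (Cyp1b1, Cyp26a1, Cyp27b1, Cyp2d22, Cyp2r1 and Cyp4f15), and with library size alone in Cyp4f17 over all 10 and Cyp1b1 over the 8. Without Cyp4a32 and Cyp4f39, an alternative chosen after the values were seen, the counts called were the same. The cause of these shifts was not tested. The highest member of each of 7 roles was the same with CPM, FPKM and CPM per kb.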
